A study of Homo sapiens with 6 samples.

Results

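The mRNAs of the nuclear-encoded subunits of the 5 oxidative phosphorylation complexes were followed in the RNA-seq libraries of MV411, an established line from a human acute myeloid leukaemia of monocytic type. Subunits were taken by symbol: names starting NDUFA, NDUFB, NDUFC, NDUFS or NDUFV for complex I (NADH dehydrogenase), SDHA to SDHD for complex II (succinate dehydrogenase), CYC1 and names starting UQCR for complex III (the cytochrome bc1 complex), names starting COX4I, COX5, COX6, COX7 or COX8 for complex IV (cytochrome c oxidase), and names starting ATP5F1, ATP5M or ATP5P for complex V (ATP synthase). NDUFA4, which carries a complex I name but is known as a subunit of complex IV, was counted with complex IV, as was its paralog NDUFA4L2. Of 20036 listed genes 90 bore these names, and 76 of them had a mean of at least 1 FPKM over the 6 libraries: 33 in complex I, 4 in complex II, 10 in complex III, 13 in complex IV and 16 in complex V. FPKM is the number of fragments of a gene per kilobase of its length, scaled by the fragments of the whole library, so it is a level per length.

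The cells, labelled wild type, received corilagin, which is a polyphenol from plants, for 48 h in 3 libraries, or DMSO, the solvent control, in 3 libraries. The labels give no dose. The labels name 1 cell line and do not say whether the replicates were separate cultures, so a p-value measures only how far these libraries vary, which may be technical.

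Complexes I to IV carry electrons from NADH and succinate to oxygen, complexes I, III and IV pump protons out of the mitochondrial matrix on the way, and complex V makes ATP as the protons flow back. Most subunits are encoded in the nucleus, made in the cytosol and imported, and are then joined to a small core encoded by mitochondrial DNA. Acute myeloid leukaemia cells are known for a strong dependence on oxidative phosphorylation, and the transcription factor NRF1 and the ETS-family factor GABP are known activators of subunit genes.

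Depth, inferred from the FPKM steps, was 18299789 to 21640689 fragments in the corilagin libraries and 17776956 to 20063657 in the DMSO libraries. The third DMSO library stood apart from the other DMSO libraries: it differed from them by a chi-square of 84.2 and 67.1 per gene, against 4.39 between DMSO replicates 1 and 2 and 2.41 to 3.30 between corilagin libraries. DMSO replicates 1 and 2 had less of AT-rich and more of GC-rich transcripts than the 4 other libraries, so results for the subunits are also given with this trend on transcript GC content removed and against DMSO replicate 3 alone. Of 16 markers of monocytic leukaemia cells 14 passed the filter, with a summed level of 588.7 to 589.7 FPKM in corilagin libraries and 525.7 to 574.1 FPKM in DMSO libraries. The receptor kinase FLT3 averaged 311 FPKM with corilagin and 217 FPKM in DMSO, while CD14 reached at most 0.340 FPKM in any library and CD68 was listed at 0 in all but 1. Among the 14, ITGAM, ITGAX, FLT3 and MEIS1 were called higher after corilagin and MPO, LYZ and CSF3R lower. Of 18 markers of other cell types 6 passed, summing to 30.6 to 33.0 FPKM in corilagin libraries and 28.4 to 29.3 FPKM in DMSO libraries, of which the endothelial and myeloid adhesion protein PECAM1 made up 20.4 FPKM with corilagin and 15.8 FPKM in DMSO, and the erythroid genes HBB and HBA1, the B-cell gene MS4A1, EPCAM and COL1A2 were at 0 in all libraries. The part of these shifts in the subunit results was not tested.

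After corilagin the subunit mRNAs of complexes I, III, IV and V were lower in many cases, and almost none were higher. In limma (Benjamini-Hochberg adjustment over all 9868 tested genes, threshold 0.05, on log2(FPKM + 1)) 36 of the 76 subunits were called lower, which is 47.4%, against 13.5% of all tested genes. Only NDUFC2 was called higher, where 11.9% of all tested genes were, and limma-voom on recovered fragments called 0 higher (10.3% of all tested genes) and 37 lower (15.2%). With no filter on low values 29 were called lower (6.44% of all genes above 0) and 0 higher (5.87%). SDHA was the single other subunit with a higher level and an unadjusted p under 0.05. The other 39 did not pass, 8 of them with an unadjusted p under 0.05. The share of all tested genes past an unadjusted p was not computed. The median log2 difference of the subunits was -0.28, beside 0.03 over all tested genes.

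The 36 lower subunits stood at 0.550 to 0.855 of their DMSO mean after corilagin, with a median of 0.719, and their adjusted p-values in limma ran from 0.00373 to 0.0491. Summed over the 76 subunits, the level was 2877, 2936 and 2928 FPKM in the 3 corilagin libraries, against 3876, 3979 and 3500 FPKM in the DMSO libraries. The 2 groups did not overlap, and the lowest DMSO sum was that of replicate 3. The same held for the sum over all 9868 tested genes, at 232177 to 235692 FPKM with corilagin and 237957 to 265632 FPKM in DMSO. Whether fewer transcripts per cell or fewer cells carrying them gave the subunit levels cannot be told apart in bulk RNA. For 44 of the 76 subunits every corilagin library lay below every DMSO library, which held for 23.3% of all tested genes, and for 5 every corilagin library lay above, which held for 25.0%. An exact 2-sided permutation test on 3 against 3 libraries gives p = 0.1 for each of these, the smallest it allows.

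With the GC trend removed, 48 subunits were called lower, against 23.2% of all tested genes, and 3 higher, against 21.8%. Of the 36 subunits called lower in the values as deposited 34 were among them, and NDUFA1 and ATP5PF were not. Against DMSO replicate 3 alone, the 36 stood at 0.618 to 0.897 of that library, with a median of 0.797. The median log2 difference of the 76 subunits was -0.21 there, beside 0.006 over all tested genes. With 1 DMSO library the spread of the control is not measured, so that comparison is given as differences only. Leaving out 1 library left 3 to 46 subunits called lower in the values as deposited, where all tested genes gave 176 to 3597: 3, 4 and 4 without corilagin replicates 1, 2 and 3, and 13, 5 and 46 without DMSO replicates 1, 2 and 3. Without DMSO replicate 3, 36.5% of all tested genes were called lower and 40.8% higher, and 12 subunits were called higher. The difference of all 36 stayed negative in each of the 6 fits that left out 1 library. They were picked as lower in these same data, so their sign could hardly turn, and it is no separate support. With the GC trend removed as well, the count of lower subunits without 1 library was 40 to 56, where 16.4 to 33.1% of all tested genes were called lower. That combination was chosen after seeing the data.

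**Figure D1:**
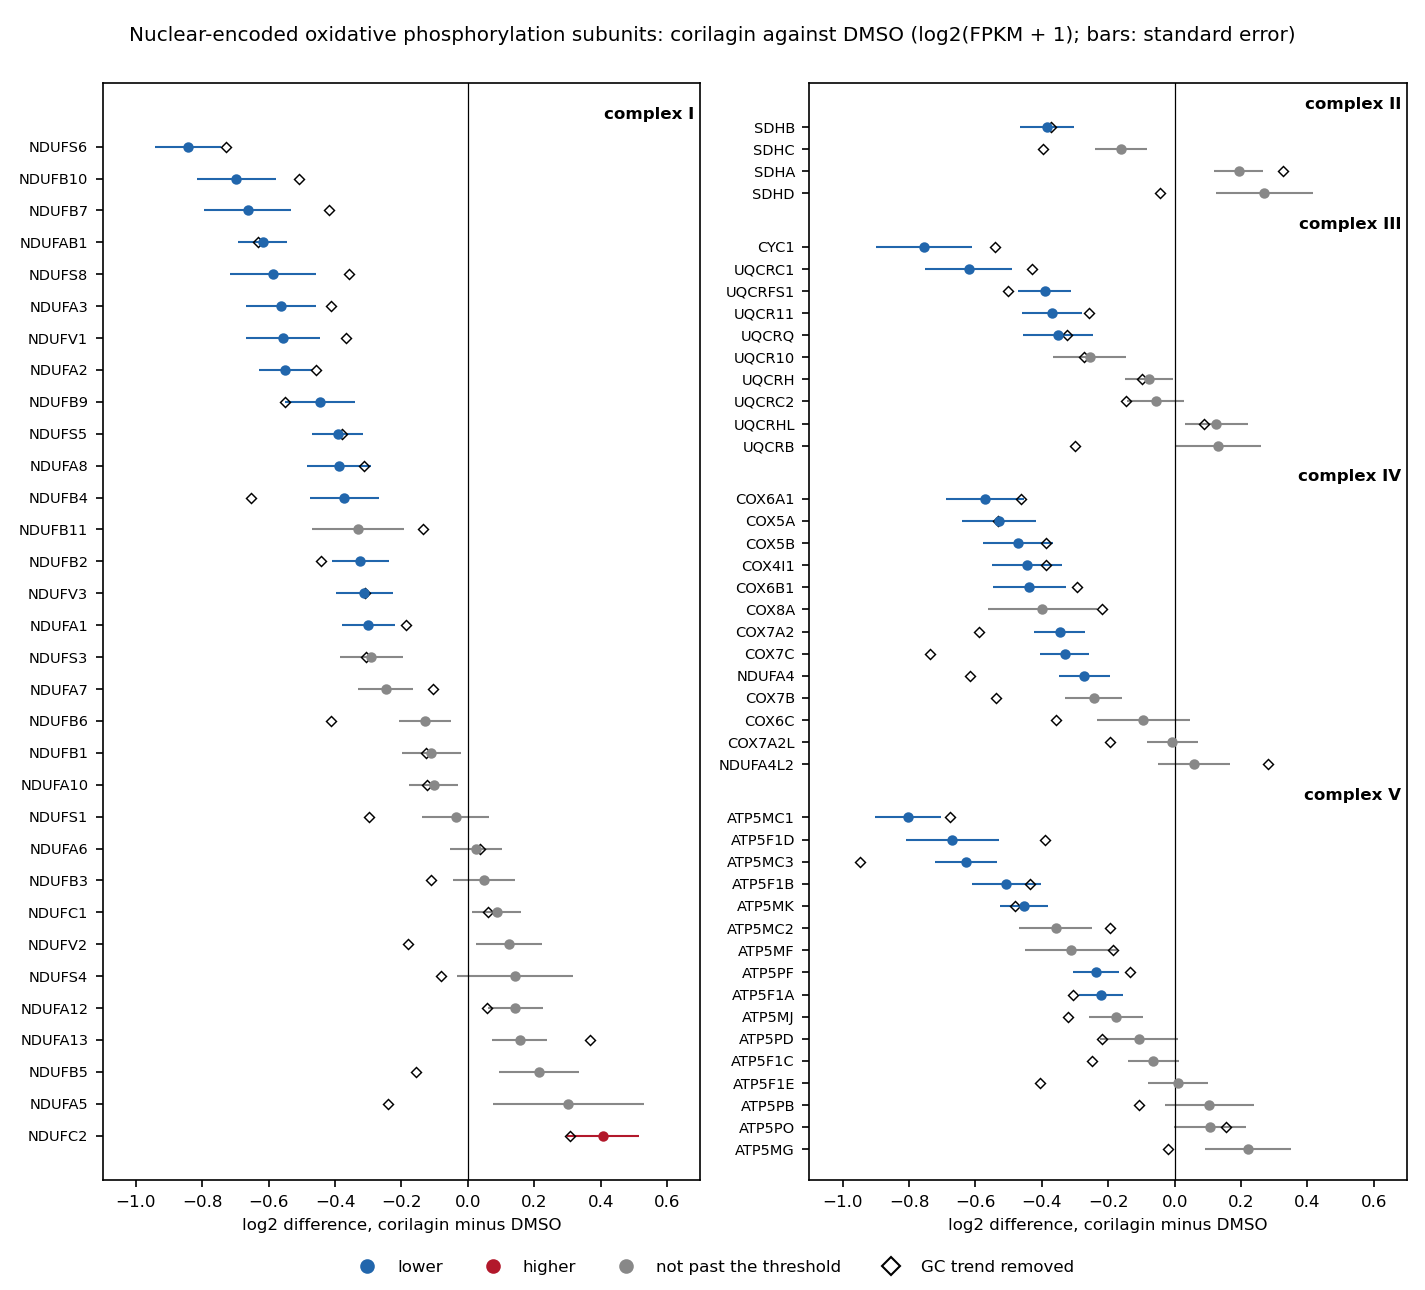
Log2 difference, corilagin minus DMSO, of 75 of the 76 subunits on the log2(FPKM + 1) scale, grouped by complex and ordered by size; circles with bars give the estimate and its standard error in limma, coloured by call, and open diamonds give the estimate with the GC trend removed. Circles run from -0.84 for NDUFS6 to 0.41 for NDUFC2, and 56 of the 75 lie left of 0.

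In the library medians the subunits deviated from their gene mean by -0.16, -0.13 and -0.12 in corilagin replicates 1, 2 and 3 and by 0.12, 0.19 and 0.05 in the DMSO replicates, on the log2(FPKM + 1) scale. Every complex but II had all its corilagin medians below all its DMSO medians. In 27 of the 36 lower subunits DMSO replicate 3 was the lowest DMSO library. With the GC trend removed the medians of complex II separated as well, at -0.10, -0.09 and -0.08 in corilagin libraries and 0.12, 0.07 and 0.03 in DMSO libraries.

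**Figure D2:**
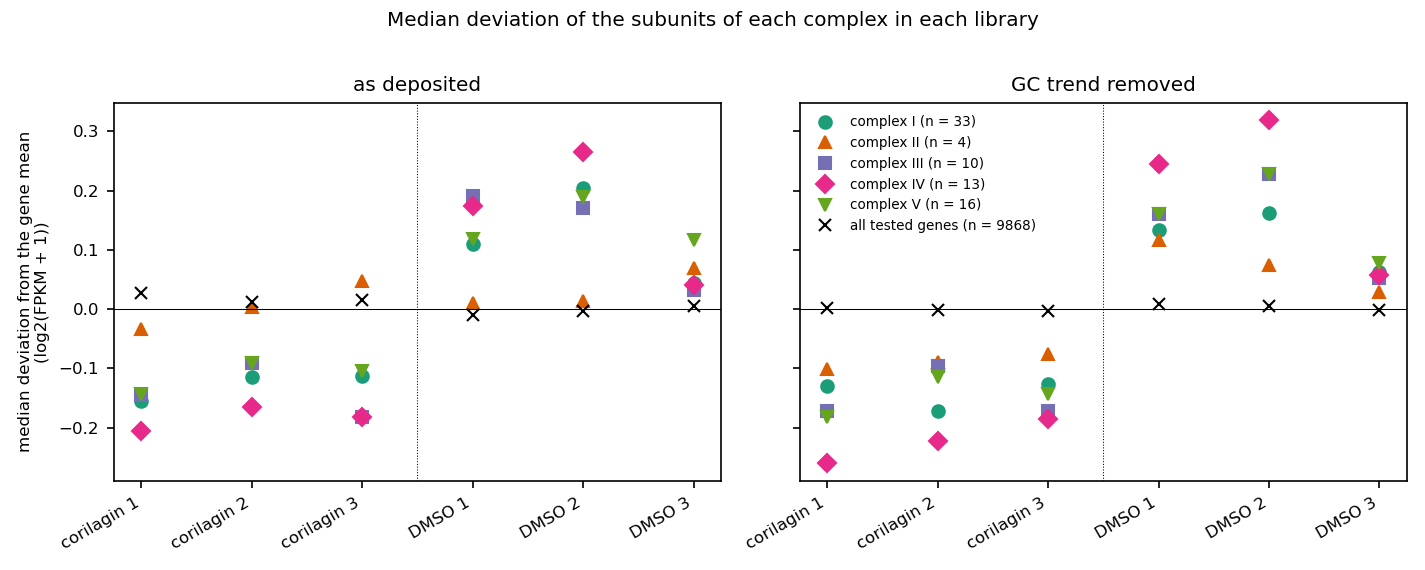
Median deviation of the subunits of each complex from their gene means, on the log2(FPKM + 1) scale, in each library, as deposited on the left and with the GC trend removed on the right; crosses give all tested genes. Complex IV lay lowest in corilagin replicate 1, at -0.21, and highest in DMSO replicate 2, at 0.27, in the values as deposited, and all tested genes stayed within 0.03 of 0.

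In all, 3 short sequence motifs known from the promoters of respiratory genes were looked for in the 300 bases around each start site (250 before to 50 after; RefSeq, GRCh38.p14), on both strands: GCGCA followed by any base and GCGC for NRF1, CCGGAAG for the ETS family and AAGATGGC for YY1. Promoters were matched for 60 of the 76 subunits. The NRF1 letters were in 13 of the 60 (21.7%), against 13.1% of 8105 promoters of tested genes and 6.28% of all 27305 promoters. The ETS letters were in 19 (31.7%), against 21.9% and 10.7%, and the YY1 letters in 9 (15.0%), against 6.21% and 3.03%. Among the 29 promoters of subunits called lower 6 held the NRF1 letters, 11 the ETS letters and 4 the YY1 letters, against 7, 8 and 5 among the 31 of subunits not called lower, and these differences were not tested. A match describes the letters and is no evidence of binding, and the motifs were chosen after the data were seen.

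Windows around a match are printed for subunits whose values are given in the next paragraphs, 6 that fell and 6 that did not pass, so that their promoters can be read side by side. The choice was made with those values known, and other subunits hold matches too. The match is in capitals, with up to 10 bases on either side, all before RefSeq's start, 5′ to 3′ on the gene's strand. NDUFB7 (chr19:14572074-14572100, minus strand), SDHB (chr1:17054144-17054170, minus), COX6A1 (chr12:120438087-120438112, plus) and COX5B (chr2:97646015-97646041, plus) fell and hold the ETS letters or their reverse complement CTTCCGG. UQCRC1 (chr3:48609674-48609703, minus) and UQCRFS1 (chr19:29213163-29213192, minus) fell and hold the NRF1 letters read on the opposite strand. NDUFS1 (chr2:206159585-206159611, minus) and UQCRH (chr1:46303642-46303668, plus) did not pass the threshold and hold the reverse complement of the ETS letters. SDHA (chr5:218144-218173, plus), SDHD (chr11:112086753-112086782, plus), ATP5F1C (chr10:7788145-7788174, plus) and ATP5PO (chr21:33915809-33915838, minus) did not pass either and hold the NRF1 letters, in ATP5PO read on the opposite strand. SDHA has 4 such matches, of which the first is shown. Some of these subunits hold further matches that are not shown, as SDHD does for the reverse complement of the ETS letters.
NDUFB7: cctaaatgacCCGGAAGctgtgtctga
SDHB: acccgggaaaCCGGAAGccgcctccca
COX5B: aagcccgcccCCGGAAGtccctcctgt
COX6A1: tccacttccgCTTCCGGcgctgcggc
NDUFS1: gctggggccaCTTCCGGcggaactgcg
UQCRH: gtgtgccgcaCTTCCGGccagatcgcc
UQCRC1: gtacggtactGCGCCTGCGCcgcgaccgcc
UQCRFS1: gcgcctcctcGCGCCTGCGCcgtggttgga
SDHA: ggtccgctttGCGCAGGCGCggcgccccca
SDHD: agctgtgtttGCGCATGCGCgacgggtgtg
ATP5F1C: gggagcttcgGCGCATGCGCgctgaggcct
ATP5PO: acgccaacgcGCGCGTGCGCccttgcgcgt

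In complex I, the entry point for electrons from NADH, 15 of 33 subunits fell (45.5%), 1 rose (3.03%) and 17 did not pass, with a median log2 difference of -0.29. Over all tested genes 13.5% were called lower and 11.9% higher, the background for each complex and module in the values as deposited. With the GC trend removed that background was 23.2% lower and 21.8% higher. In the values as deposited, the largest fall among all 76 subunits was that of NDUFS6 (ENSG00000145494, chr5:1801400-1816605, plus strand, GRCh38), an accessory subunit of the N module, the part that oxidises NADH. NDUFS6 was at 51.4, 53.5 and 54.2 FPKM after corilagin, against 102, 103 and 83.6 FPKM in DMSO. The corilagin libraries lay close together and well below each DMSO library, of which the third was lowest. Its log2 difference was -0.84 (SE 0.0991, adjusted p = 0.00373 in limma), a fold of 0.550, and it was -0.73 with the GC trend removed, where ATP5MC3 in complex V had a larger fall. NDUFV1, which binds NADH and the flavin that takes its electrons, was at 37.6, 36.3 and 35.5 FPKM after corilagin, against 58.8, 58.7 and 45.9 FPKM in DMSO. It stood at 0.670 of the DMSO mean (log2 difference -0.56, adjusted p = 0.0166 in limma) with no overlap of the groups, and at a difference of -0.37 with the GC trend removed.

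The N module was not uniform. NDUFS1, its largest iron-sulfur subunit, was at 14.7, 13.2 and 14.5 FPKM after corilagin, against 13.5, 13.6 and 16.4 FPKM in DMSO. The groups overlapped and the difference did not pass (-0.04, adjusted p = 0.792 in limma). With the GC trend removed it was called lower, at -0.30 (adjusted p = 0.00512), and against DMSO replicate 3 alone its difference was -0.21. Of the 8 N module subunits 4 fell, NDUFS6, NDUFV1, NDUFA2 and NDUFV3, and NDUFV2, NDUFS4 and NDUFA12 had positive differences of 0.12 to 0.14 that did not pass and that turned negative for NDUFV2 and NDUFS4 with the GC trend removed.

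The Q module hands the electrons to ubiquinone, and 1 of its 6 measured subunits fell (16.7%, close to the background), or 3 with the GC trend removed. That was NDUFS8, which carries iron-sulfur clusters, at 9.998 ± 0.161 FPKM with corilagin and 15.7 ± 2.74 FPKM in DMSO (SD, n = 3 each; adjusted p = 0.0218 in limma).

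In the proton-pumping membrane arm 10 of 19 subunits fell (52.6%) and 1 rose. NDUFB10, an accessory subunit, was at 43.5, 46.8 and 45.6 FPKM after corilagin, against 81.5, 80.6 and 61.7 FPKM in DMSO. NDUFB7, another accessory subunit, was at 81.6, 85.4 and 90.9 FPKM after corilagin, against 154, 148 and 112 FPKM in DMSO. Neither gene overlapped between groups, and DMSO replicate 3 was the nearest to corilagin in both. Their folds were 0.607 and 0.623 (log2 differences -0.70 and -0.66, adjusted p = 0.0111 and 0.0160 in limma), and the differences were -0.51 and -0.42 with the GC trend removed. NDUFAB1, the mitochondrial acyl carrier protein, which is built into complex I as well, also fell, with 32.2 ± 0.208 FPKM with corilagin and 49.9 ± 2.52 FPKM in DMSO (SD, n = 3 each). NDUFAB1, NDUFS6 and, in complex V, ATP5MC1 were the 3 subunits called lower whichever library was left out. The share of all tested genes called lower in every such fit was not computed. These fits reuse the same libraries, so the repeated calls are no separate support.

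NDUFC2 (ENSG00000151366, chr11:78068304-78080219, minus strand), an accessory subunit of the membrane arm, went the other way. It was at 4.12, 3.40 and 4.51 FPKM after corilagin, against 2.56, 3.05 and 2.69 FPKM in DMSO. All corilagin libraries lay above all DMSO libraries, 1.45-fold on average. The log2 difference of 0.41 (SE 0.109, adjusted p = 0.0360 in limma) was 0.31 with the GC trend removed and 0.44 against DMSO replicate 3. Its call was lost without a filter on low values (adjusted p = 0.0669), in limma-voom on recovered fragments (adjusted p = 0.0528) and without any 1 library other than DMSO replicate 3 (adjusted p = 0.0659 to 0.139), and 110 to 205 fragments per library lay behind it in the lowest and highest library. The readthrough gene NDUFC2-KCTD14 was listed at 0 in every library, and whether reads of NDUFC2 went uncounted was not tested.

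**Figure D3:**
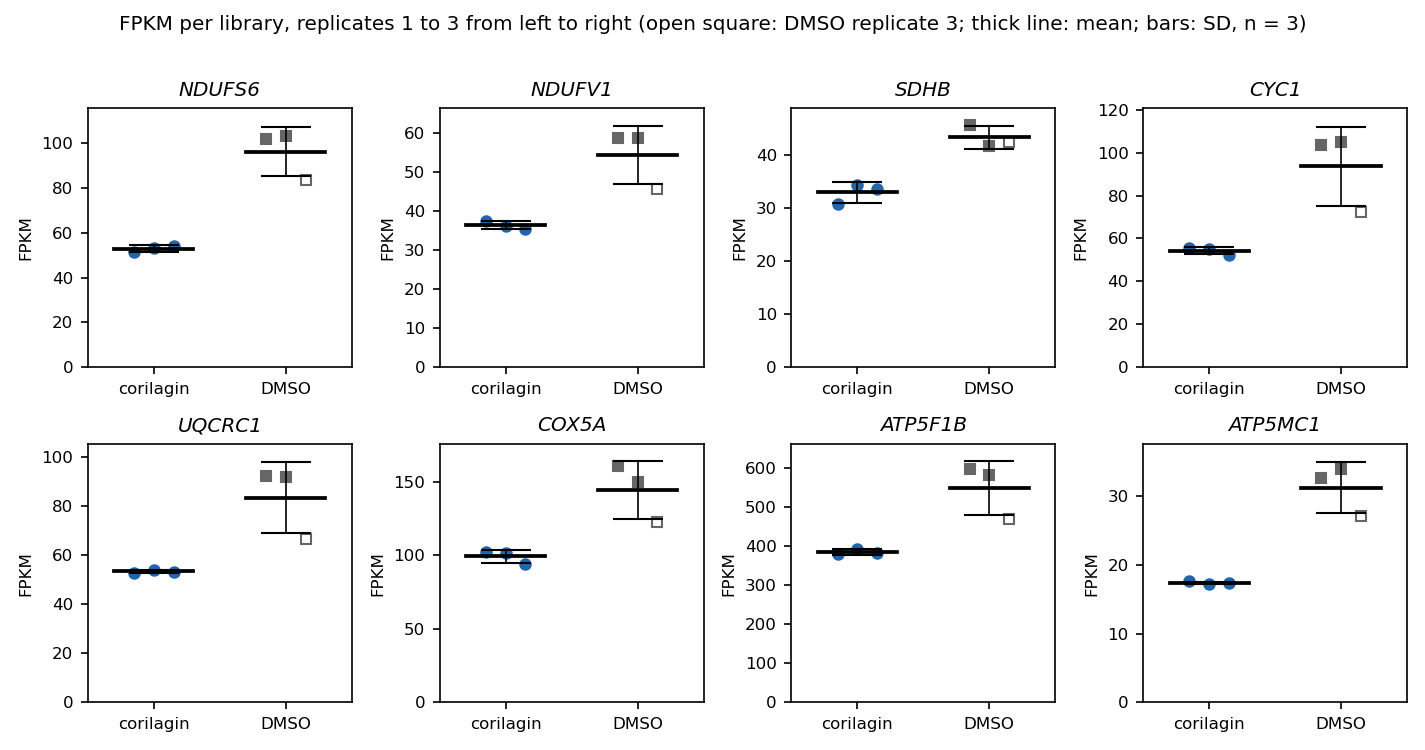
FPKM of 8 subunits in each library, corilagin as circles and DMSO as squares, with the third DMSO library open; thick lines give the mean and bars the SD of 3 libraries, and each vertical axis starts at 0. In all 8 every corilagin library lies below every DMSO library, and in 7 of them, all but SDHB, DMSO replicate 3 is the lowest DMSO library.

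Complex II, which oxidises succinate and feeds ubiquinone, is made only from nuclear genes, and its 4 subunits differed among themselves. SDHB (ENSG00000117118, chr1:17018722-17054170, minus strand), the iron-sulfur subunit, fell, with 30.7, 34.3 and 33.6 FPKM after corilagin, against 45.6, 41.6 and 42.4 FPKM in DMSO. The groups did not overlap, and DMSO replicate 3 lay between the other DMSO libraries. The fold was 0.761 (log2 difference -0.39, adjusted p = 0.0194 in limma), and it was the same size with the GC trend removed, at -0.37. SDHA, the flavoprotein that oxidises succinate, was listed at 1.23, 1.31 and 1.51 FPKM after corilagin, against 1.046, 1.031 and 1.08 FPKM in DMSO.

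SDHA was thus highest in corilagin replicate 3 and did not overlap between groups, but its difference of 0.19 did not pass (adjusted p = 0.0857). It was called higher with the GC trend removed, at 0.33 (adjusted p = 0.0269), and also with the length trend removed as well, with equal FPKM sums (adjusted p = 0.0481) and without DMSO replicate 3 (adjusted p = 0.0325). Against DMSO replicate 3 alone its difference was 0.17. Its level lay far under those of the other subunits of the complex, and 6 pseudogenes bear its name. Whether reads were lost to or shared with them was not tested. The membrane anchor SDHC was at 63.7 ± 0.619 FPKM with corilagin and 71.5 ± 4.68 FPKM in DMSO (SD, n = 3 each, adjusted p = 0.142). It was called lower at -0.40 with the GC trend removed, while its difference against DMSO replicate 3 alone was -0.05. The other anchor, SDHD, was at 37.6, 36.0 and 38.8 FPKM after corilagin, against 26.3, 28.5 and 39.2 FPKM in DMSO. DMSO replicate 3 reached the corilagin libraries there, and the difference of 0.27 (adjusted p = 0.181) turned to -0.05 with the GC trend removed and to -0.07 against DMSO replicate 3. Over the 4 subunits the median difference was 0.02.

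In complex III, which moves electrons from ubiquinol to cytochrome c, 5 of 10 subunits fell and none rose, with a median of -0.30, and 8 were called lower with the GC trend removed. As in complexes IV and V, limma-voom and an unadjusted p under 0.05 also gave 0 higher subunits. Limma-voom called 10.3% of all tested genes higher, and their share past the unadjusted p was not computed. Both nuclear-encoded redox subunits were among those that fell. CYC1 (ENSG00000179091, chr8:144095027-144097525, plus strand), which is cytochrome c1, was at 55.3, 55.2 and 52.4 FPKM after corilagin, against 104, 105 and 72.5 FPKM in DMSO. UQCRFS1, the Rieske iron-sulfur protein, was at 40.1, 41.4 and 40.5 FPKM after corilagin, against 55.04, 56.6 and 49.6 FPKM in DMSO. The groups did not overlap in either gene, and replicate 3 was the lowest DMSO library of both. Their folds were 0.580 and 0.757 (log2 differences -0.76 and -0.39, adjusted p = 0.0149 and 0.0173 in limma), and with the GC trend removed the differences were -0.54 and -0.50.

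The paired core proteins UQCRC1 and UQCRC2, which hold the complex together on the matrix side, are taken next. UQCRC1 was at 52.9, 54.1 and 53.0 FPKM after corilagin, against 92.2, 91.7 and 66.6 FPKM in DMSO, a fold of 0.639 (adjusted p = 0.02001 in limma). UQCRC2 was at 40.7 ± 1.498 FPKM with corilagin and 42.4 ± 3.46 FPKM in DMSO (SD, n = 3 each), with overlapping groups and an adjusted p of 0.614. With the GC trend removed the differences were -0.43 for UQCRC1 and -0.15 for UQCRC2, both called lower, and the difference between these 2 genes was not tested. The small subunits UQCR11 and UQCRQ also fell, to 0.725 and 0.757 of their DMSO means. UQCRH, the acidic hinge protein, was at 152 FPKM with corilagin and 161 FPKM in DMSO (limma adjusted p = 0.426), and UQCRHL, a near-identical copy of it that can share its reads, did not pass either (adjusted p = 0.323).

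Complex IV, which passes the electrons to oxygen, had the largest share of lower subunits in the values as deposited, 8 of 13 (61.5%), with 0 called higher in limma and a median of -0.35. Once the GC trend was removed, 10 of 13 were called lower, a smaller share than the 8 of 10 in complex III. COX5A (ENSG00000178741, chr15:74919791-74938168, minus strand), an accessory subunit on the matrix side, was at 102, 101 and 94.2 FPKM after corilagin, against 160, 150 and 123 FPKM in DMSO. COX4I1, the ubiquitous isoform of the largest nuclear-encoded subunit, was at 60.3, 65.4 and 62.8 FPKM after corilagin, against 93.2, 91.8 and 74.1 FPKM in DMSO. Both were lower in every corilagin library than in any DMSO library. The folds were 0.687 and 0.728 (log2 differences -0.53 and -0.45, adjusted p = 0.0191 and 0.0267 in limma), and with the GC trend removed the differences were -0.53 and -0.39.

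COX5B, which binds zinc, was at 46.9 ± 1.63 FPKM with corilagin and 65.8 ± 8.37 FPKM in DMSO (SD, n = 3 each), a fold of 0.713 (adjusted p = 0.0236 in limma). In the values as deposited COX6A1 had the largest relative fall of the complex, with 3.17, 3.21 and 3.67 FPKM after corilagin, against 5.51, 6.37 and 4.62 FPKM in DMSO. Its groups did not overlap, its fold was 0.610 (log2 difference -0.57, adjusted p = 0.0180), its difference was -0.46 with the GC trend removed, and 7 pseudogenes are named after it. COX6B1, COX7A2, COX7C and NDUFA4 also fell, to 0.731, 0.783, 0.793 and 0.822 of their DMSO means. These last 3 have AT-rich transcripts, and with the GC trend removed their differences grew to -0.59 for COX7A2, -0.74 for COX7C and -0.62 for NDUFA4, past that of COX6A1.

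COX7A2L, a paralog of COX7A2 that links complexes III and IV in supercomplexes, was at 25.2 ± 1.14 FPKM with corilagin and 25.3 ± 1.01 FPKM in DMSO (SD, n = 3 each; adjusted p = 0.949 in limma). NDUFA4L2, the hypoxia-induced paralog of NDUFA4, was at 2.76 ± 0.493 FPKM with corilagin and 2.60 ± 0.164 FPKM in DMSO (limma adjusted p = 0.692). The tissue-restricted isoforms were near absence: COX6A2 and COX7B2 were listed at 0 in all 6 libraries, COX4I2 had a value above 0 in 1 library, and COX6B2, COX8C and COX7A1 averaged 0.115, 0.429 and 0.474 FPKM.

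In complex V 7 of 16 subunits fell (43.8%) and none was called higher in limma, with a median of -0.23, and 10 were called lower with the GC trend removed. ATP5F1B (ENSG00000110955, chr12:56638175-56646068, minus strand), the catalytic beta subunit, had the highest level of all 76 subunits, with 379, 393 and 382 FPKM after corilagin, against 597, 582 and 470 FPKM in DMSO. The groups did not overlap, and the fold was 0.6995 (log2 difference -0.51, SE 0.103, adjusted p = 0.0176 in limma), with a difference of -0.43 once the GC trend was removed. ATP5F1A, the alpha subunit that alternates with beta in the F1 head, was at 65.0, 62.9 and 63.5 FPKM after corilagin, against 74.7, 74.1 and 75.1 FPKM in DMSO. It fell less, to 0.855 of its DMSO mean (adjusted p = 0.0480), although both groups were tight, and the difference between these 2 genes was not tested. The call of ATP5F1A was lost with equal FPKM sums per library (-0.10, adjusted p = 0.244) and with the replicate block (adjusted p = 0.0907), both in limma.

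ATP5F1D, the delta subunit of the central stalk, was at 26.4, 27.3 and 27.7 FPKM after corilagin, against 50.1, 48.2 and 34.6 FPKM in DMSO. Replicate 3 was again the DMSO library nearest to corilagin, and the fold was 0.612 (log2 difference -0.67, adjusted p = 0.0194 in limma). The difference was -0.39 with the GC trend removed and -0.34 against DMSO replicate 3. The stalk subunits ATP5F1C and ATP5F1E, which are gamma and epsilon, had differences of -0.06 and 0.01 that did not pass, and both were called lower with the GC trend removed, at -0.25 and -0.41.

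The c-ring, the rotor in the membrane, is built from 1 mature protein encoded by ATP5MC1, ATP5MC2 and ATP5MC3, which differ in their import sequences. ATP5MC1 (ENSG00000159199, chr17:48892765-48895871, plus strand) was at 17.6, 17.2 and 17.3 FPKM after corilagin, against 32.7, 33.98 and 27.0 FPKM in DMSO. ATP5MC3 was at 37.8, 40.6 and 39.2 FPKM after corilagin, against 65.6, 64.1 and 54.4 FPKM in DMSO. Both fell, to 0.557 and 0.639 of the DMSO mean (log2 differences -0.80 and -0.63, adjusted p = 0.00442 and 0.00767 in limma). Their order turned with the GC trend removed, to -0.68 for ATP5MC1 and -0.95 for ATP5MC3. It did not turn against DMSO replicate 3 alone, at -0.61 for ATP5MC1 and -0.46 for ATP5MC3. ATP5MC2 was at 39.1, 39.7 and 38.7 FPKM after corilagin, against 54.5, 55.2 and 42.8 FPKM in DMSO. Its groups did not overlap either, and its difference of -0.36 missed the threshold (adjusted p = 0.0523), while at -0.20 with the GC trend removed it passed (adjusted p = 0.00979). Against DMSO replicate 3 alone the difference of ATP5MC2 was -0.12. Summed over the 3 genes, the c-ring mRNA level was 94.5, 97.5 and 95.3 FPKM after corilagin, against 153, 153 and 124 FPKM in DMSO.

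In the peripheral stalk, which holds the head against the rotor, ATP5PF alone of 4 subunits was called lower, at 0.843 of its DMSO mean (adjusted p = 0.0456 in limma), and that call was lost with the GC trend removed (adjusted p = 0.110). ATP5PB, ATP5PD and ATP5PO had differences of 0.10, -0.11 and 0.11 that did not pass. Of 4 further membrane subunits ATP5MK, which takes part in joining the enzyme into dimers, fell to 0.728 of its DMSO mean (adjusted p = 0.00909). The share of lower subunits thus ran from 25.0% in complex II to 61.5% in complex IV, and the differences between complexes were not tested.

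**Figure D4:**
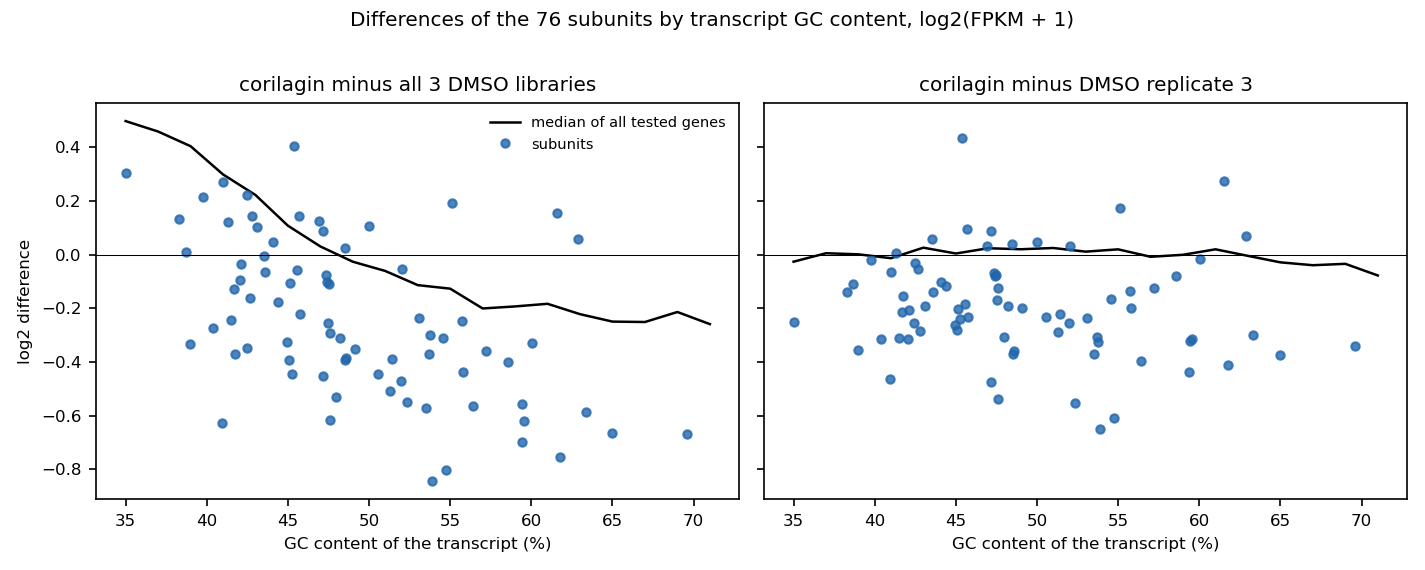
Log2 difference of the 76 subunits against the GC content of their transcript in percent, corilagin minus all 3 DMSO libraries on the left and minus DMSO replicate 3 alone on the right; the line gives the median of all tested genes in classes of 2 percent. The line falls across the left panel and stays near 0 in the right one, and most subunits lie below it in both.

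Subunits called lower were found in every class of transcript GC content. Among the 24 subunits with a GC content under 45% 6 were called lower (25.0%), where 2.20% of all tested genes in that class were. From 45 to 50% it was 10 of 22 (45.5%) against 11.8%, from 50 to 55% 11 of 14 (78.6%) against 17.7%, from 55 to 60% 5 of 9 (55.6%) against 24.3%, and above that 4 of 7 (57.1%) against 26.8%. Subunit transcripts were short, with a median of 1256.5 bases against 3350 bases over all tested genes, and their median GC content of 47.6% was near the 48.8% of all tested genes. With trends on both GC content and length removed 47 subunits were called lower (23.5% of all tested genes) and 5 higher (21.4%). Among the subunits called lower as deposited, 34 were also called lower with the GC trend removed, and 33 with the GC and length trends removed. The share of all tested genes with such repeated calls was not computed. These fits reuse the same libraries, so their overlap is no separate support.

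Among the 90 names 14 did not reach a mean of 1 FPKM. Besides the tissue-restricted isoforms of complex IV they were NDUFA11, just outside the filter with 0.973 FPKM, NDUFB8, NDUFA9, NDUFS7, ATP5ME, ATP5MGL and the readthrough genes NDUFC2-KCTD14 and ATP5MF-PTCD1. NDUFA7 and SDHA lay just inside it, with 1.17 and 1.201 FPKM. Several of these are obligate parts of their complexes, and 48.5% of the exonic bases of NDUFB8, 49.1% of NDUFS7 and 61.6% of ATP5ME overlap another gene, and whether reads there went uncounted was not tested. NDUFS7, an iron-sulfur subunit of the Q module, was at 0.266, 0.295 and 0.264 FPKM after corilagin, against 0.6004, 0.668 and 0.377 FPKM in DMSO, and did not pass without the filter (adjusted p = 0.0548 in limma). Of the 76 tested subunits 48 have at least 1 pseudogene named after them, whose share of the reads was not tested.

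Assembly factors are proteins that build the complexes without staying in them. Of 61 assembly factors 53 were tested, 14 fell (26.4%, against 13.5% of all tested genes) and 1 rose (1.89%, against 11.9%), with a median of -0.17. Called lower were 27 with the GC trend removed (50.9%, against 23.2% of all tested genes). The median against DMSO replicate 3 alone was -0.16. The complex I factors NDUFAF3 and NDUFAF8 had the largest falls, NDUFAF3 with 8.05 ± 0.466 FPKM with corilagin and 14.1 ± 1.999 FPKM in DMSO, and NDUFAF8 with 9.84 ± 1.11 and 16.7 ± 1.24 FPKM (SD, n = 3 each; adjusted p = 0.00862 and 0.00766 in limma). TTC19, which acts late in building complex III, rose 1.32-fold (adjusted p = 0.0222).

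The 13 subunit mRNAs of mitochondrial DNA summed to 35094, 38356 and 34973 FPKM after corilagin, against 58113, 50120 and 38210 FPKM in DMSO. The third DMSO library lay just below the second corilagin library, so the groups overlapped. MT-ATP8, MT-ND5, MT-ND6 and MT-CO3 were called lower in limma (30.8%, against 13.5% of all tested genes), and none was called higher (against 11.9%). With the GC trend removed 7 were called lower (53.8%, against 23.2%). With no filter on low values 0 were called lower (against 6.44% of all genes above 0). The median of -0.41 was -0.08 against DMSO replicate 3 alone. MT-ND5 was at 1141, 1163 and 988 FPKM after corilagin, against 2021, 1744 and 1405 FPKM in DMSO. It abuts MT-ND6 on the opposite strand, and without a stated strand reads of MT-ND6 cannot be told apart from antisense reads.

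Of 14 tested regulators of respiratory genes 4 fell (28.6%, against 13.5% of all tested genes) and none rose in limma. With the GC trend removed 6 were called lower (42.9%, against 23.2% of all tested genes). The median against DMSO replicate 3 alone was -0.23. MYC, a transcription factor that drives growth and mitochondrial genes, was at 26.1 ± 1.93 FPKM with corilagin and 65.1 ± 5.44 FPKM in DMSO (SD, n = 3 each; adjusted p = 0.00117), and POLRMT, the mitochondrial RNA polymerase, was at 8.80 ± 0.386 and 15.4 ± 3.04 FPKM (adjusted p = 0.0164). The coactivators PPRC1 and PPARGC1B fell to 0.591 and 0.589 of their DMSO means. NRF1 was at 8.06 ± 0.427 FPKM with corilagin and 9.14 ± 0.743 FPKM in DMSO, which did not pass (adjusted p = 0.195). GABPA, the DNA-binding subunit of GABP, was at 11.9, 12.7 and 12.8 FPKM after corilagin, against 4.47, 4.29 and 13.8 FPKM in DMSO, so that DMSO replicate 3 lay above the corilagin libraries (adjusted p = 0.121).

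Other mitochondrial genes fell beside the subunits. Of 71 mitochondrial ribosomal proteins 28 fell (39.4%, against 13.5% of all tested genes) and none rose in limma, with a median of -0.21. Called lower were 46 with the GC trend removed (64.8%, against 23.2% of all tested genes). The median against DMSO replicate 3 alone was -0.21. The largest falls as deposited were those of MRPS26 and MRPS34 at 0.381 and 0.549 of their DMSO means. Of 14 enzymes of the TCA cycle, which supplies NADH and succinate, 5 fell (35.7%, against 13.5% of all tested genes) and none rose, with a median of -0.27. With the GC trend removed 10 were called lower (71.4%, against 23.2% of all tested genes). The median against DMSO replicate 3 alone was -0.28. MDH2, the malate dehydrogenase of the matrix, was at 67.5 ± 0.646 FPKM with corilagin and 111 ± 18.5 FPKM in DMSO, and OGDH, of the oxoglutarate dehydrogenase complex, at 27.9 ± 0.276 and 43.0 ± 6.90 FPKM (SD, n = 3 each; adjusted p = 0.0128 and 0.0180 in limma). Among 5 electron carriers, with the ATP synthase inhibitor ATP5IF1 counted in, none passed in limma, and CYCS, the cytochrome c that links complexes III and IV, was at 43.2 ± 1.84 FPKM with corilagin and 41.8 ± 11.3 FPKM in DMSO (adjusted p = 0.735). Higher genes with an unadjusted p under 0.05 numbered 2 among the mitochondrial ribosomal proteins, 1 among the regulators and 0 in the other 3 lists with no rise. The share of all tested genes past that p was not computed. Limma-voom called 0 higher in each of the 5 lists, and 10.3% of all tested genes. In limma 11.9% of all tested genes were called higher.

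**Figure D5:**
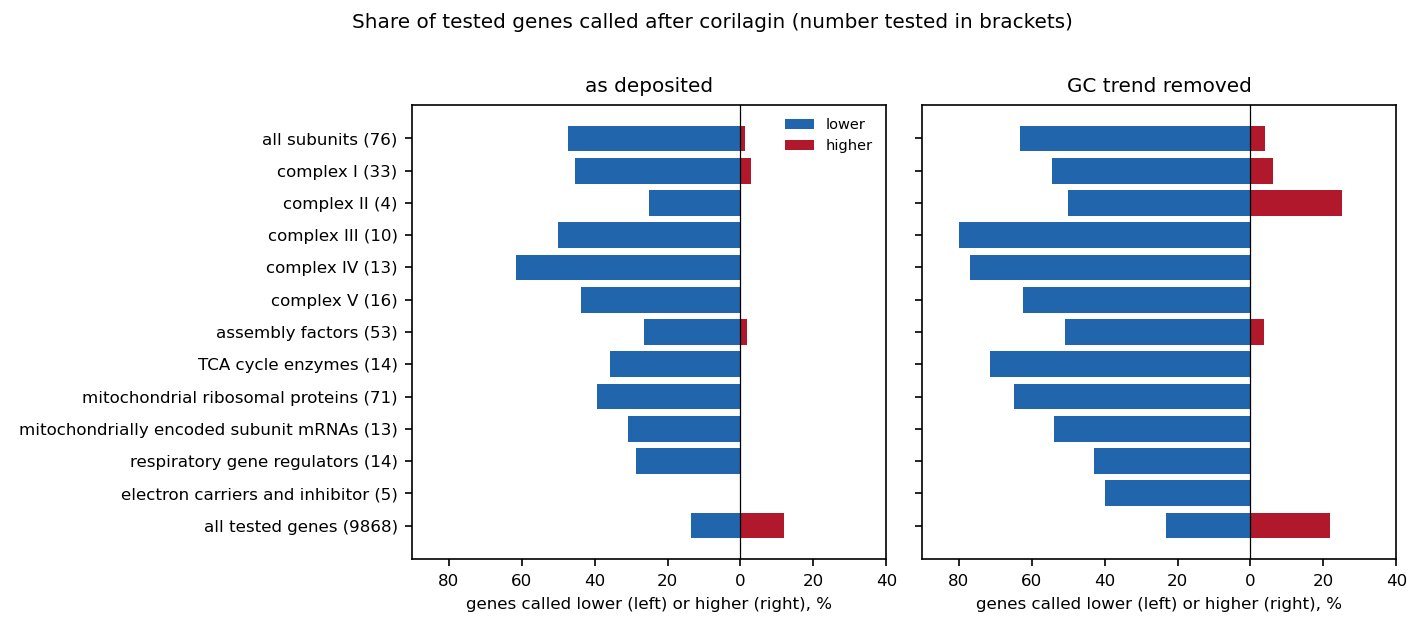
Share of tested genes called lower (left of 0, blue) and higher (right of 0, red) after corilagin, in percent, for the subunits, each complex and other mitochondrial lists, as deposited on the left and with the GC trend removed on the right; the number tested stands in brackets, and on the right all tested genes are the 9859 with a known GC content. In the values as deposited 47.4% of the subunits and 13.5% of all tested genes were called lower.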

How the data were processed

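RNA-seq of 6 libraries was analysed, 3 with corilagin and 3 with DMSO. Per the labels' protocols, poly(A) RNA was reverse transcribed with random primers, amplified over 15 PCR cycles and read as 150-base pairs, with no statement on strand. The submitters' processing notes name fastp 0.22.0, HISAT2 2.1.0, HTSeq 0.9.1, DESeq 1.38.3 and GRCh38. The authors deposited FPKM for 20036 genes, of which 20011 were matched to symbols. The values were whole multiples of 1 fragment: fragments were recovered for 15921 of 15921 genes above 0 (tolerance 0.01), which put depth at 17776956 to 21640689 fragments per library, totals that are themselves inferred and approximate.

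Groups were compared with limma 3.58.1 (R 4.3.3; lmFit, then eBayes with a trend; tests are 2-sided) on log2(FPKM + 1), over the 9868 genes averaging at least 1 FPKM, with Benjamini-Hochberg adjustment over all of them and a threshold of 0.05. On this scale the change of low genes is understated, so folds are ratios of mean FPKM. The GC trend was removed per library with a natural spline of 5 degrees of freedom on transcript GC content from GENCODE release 29, and length with 4. This also takes out any true difference that follows GC content. Gene coordinates are from GENCODE release 29. The main fit was also run on simulated data. These had no trend on GC content and no deviating DMSO library, so that run cannot show how the fit behaves with them. No pair of replicates was alike within sampling noise.

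The named subunits were, per complex, up to 3 called falls and rises with the largest differences, plus fixed catalytic, core and c-ring genes, and up to 2 called genes in each direction from each other list; others were chosen after their values were seen. The values of 1 subunit under this rule are not reported here, though it stays in every count. The members and lists were chosen with earlier results of these data known. Alternatives were other pseudocounts, filters, scalings, libraries, trends, a replicate block and limma-voom with TMM factors.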

Additional observations from a re-analysis of the deposited data

How the results depend on the processing

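The count of lower subunits was 28 to 37 with other pseudocounts, filters, scalings, the replicate block or limma-voom, where all tested genes gave 1010 to 1502. It was 47 to 51 with a GC trend removed, where all tested genes gave 2237 to 2317. The cause of those shifts was not tested. Equal FPKM sums moved the median of all genes by 0.10, and the subunit counts with it to 28 lower and 2 higher. There 1059 of all tested genes were called lower and 1620 higher. Higher subunits numbered 0 with no filter, a mean of at least 5 FPKM and limma-voom, 2 with equal sums, 3 with the GC trend removed (with and without the replicate block) and 5 with GC and length removed. All tested genes called higher numbered 713 to 1020 in the first 3 of these settings, 1620 with equal sums and 2110 to 2154 in the others. Leaving out each library in turn gave 3 to 46 lower and 0 to 12 higher subunits. All tested genes gave 176 to 3597 lower and 131 to 4030 higher there. With the GC trend removed as well, 40 to 56 subunits were lower (16.4 to 33.1% of all tested genes). Higher ones then numbered 1 to 4, where all tested genes gave 1420 to 3101. The 12 higher ones appeared without DMSO replicate 3. The median of the subunits was -0.18 with equal sums, -0.21 against DMSO replicate 3 and -0.35 in limma-voom, and -0.31 to -0.25 without single libraries.

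By complex, equal sums gave medians of -0.18 (I), 0.11 (II), -0.20 (III), -0.23 (IV) and -0.11 (V). Against DMSO replicate 3 they were -0.21 (I), -0.059 (II), -0.19 (III) and -0.26 (IV). The GC trend removed, with or without the block, gave -0.21 (II) and -0.28 (V), and GC with length -0.22 (I), -0.14 (II) and -0.21 (III). Complex II was at 0.057 with a pseudocount of 0.1 and -0.16 with a mean of at least 5 FPKM, where complex V was at -0.27. In limma-voom complexes I, III and V were at -0.35, -0.39 and -0.28. Without single libraries the ranges were -0.30 to -0.24 (I), -0.01 to 0.04 (II), -0.37 to -0.25 (III), -0.39 to -0.30 (IV) and -0.23 to -0.22 (V).

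Of the 23 subunits named by rule and recomputed under every alternative 2 changed sign, neither of them called as deposited. NDUFS1 turned to 0.077 with equal sums and ran from -0.081 to 0.050 without single libraries, positive without corilagin replicate 2 or DMSO replicate 3. SDHD turned to -0.065 against DMSO replicate 3 and to -0.046 with the GC trend removed, also with the block. Of the other subunits given values, NDUFV2, NDUFS4, ATP5F1E and ATP5PB turned negative with the GC trend removed, at -0.18, -0.082, -0.41 and -0.11.

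Replicate numbers are shared between groups, but same-numbered libraries correlated at 0.28, 0.0787 and 0.34, so they were not taken as pairs. With the replicate block 33 subunits fell and 1 rose, where 1330 of all tested genes fell and 1547 rose. Once the GC trend was removed as well 51 subunits fell, where 2237 of all tested genes did. A planned edgeR test on recovered fragments was not run, since the deposited values are FPKM. Depth limits the weakest tested subunits most: NDUFA7 had 26 to 44 fragments per library.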
